A study of Mus musculus with 8 samples.

Results

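J-domain and heat shock chaperones are the protein-folding genes described here. They were taken as every row of the deposited expression table with an official symbol beginning Dnaja, Dnajb or Dnajc and a number, Hspa, Hspb, Hspd, Hspe or Hsph and a number, or Hsp90, with pseudogene symbols left out. The rule found 73 genes of 55414 in the table. They comprise 4 class A, 13 class B and 28 class C J-domain genes, 14 HSP70 and HSP110 genes, 3 HSP90 genes, 3 mitochondrial chaperonin genes and 8 small heat shock genes. Of the 73, 49 exceeded 10 TPM (a transcript abundance scaled for transcript length and library size) in at least 1 library and were tested.

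The cells were mpkCCD, a re-cloned line of mouse cortical collecting duct that descends from mice carrying an SV40 large T transgene (SV-PK/Tag), so all libraries come from 1 clone. They were grown on permeable supports with the V2 receptor agonist dDAVP. The first group, tolvaptan plus dDAVP, received 50 nM of the V2 receptor antagonist tolvaptan for 24 h with 0.1 nM dDAVP present (4 libraries). The second group, dDAVP alone, received the vehicle of tolvaptan with 0.1 nM dDAVP for the same time (4 libraries). No group without dDAVP was analysed here. Both groups carry the same genotype, and the comparison asks what blockade of the V2 receptor does to transcript levels while the agonist stays in the medium.

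Molecular chaperones bind unfolded or misfolded proteins and help them fold, assemble, cross membranes or be degraded. HSP70 proteins bind and release short hydrophobic stretches in a cycle driven by ATP. J-domain proteins bring clients to HSP70 and start ATP hydrolysis, and nucleotide exchange factors, the HSP110 proteins among them, open HSP70 again. HSP90 acts later, on kinases, steroid receptors and other clients that are nearly folded. Small heat shock proteins hold unfolding proteins without ATP, and the HSP60 and HSP10 pair encloses proteins inside mitochondria. Heat shock factor 1 drives the inducible members after heat or proteotoxic stress, while a separate response drives the chaperones of the endoplasmic reticulum (ER). In collecting duct principal cells, HSP70 proteins are known among the proteins that bind the water channel aquaporin-2.

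Of 12 principal cell marker genes, 10 exceeded 10 TPM in every library, whereas Aqp3 lay between 3.42 and 5.42 TPM and Elf5 between 0.02 and 0.14 TPM. The groups did not overlap for 9 of the 12. Aqp2, the vasopressin-regulated water channel, lay between 237 and 339 TPM with tolvaptan, against 2828 to 3211 TPM with dDAVP alone, and Krt18, Krt8, Avpr2, Hoxb7 and Aqp3 were also lower in every tolvaptan library, while Scnn1a, Scnn1g and Epcam were higher. The part of these markers in the results was not tested. Of 20 markers of other kidney, vascular, stromal and blood cells, 17 were under 1 TPM in every library, the exceptions being Atp6v1b1, Lrp2 and Cd68, and none was at 0 in every library. Their summed level was 66.0 to 95.9 TPM with tolvaptan, against 57.7 to 87.3 TPM with dDAVP alone, and these ranges overlapped. The highest of them was the intercalated cell marker Atp6v1b1, at 46.18 to 77.55 TPM with tolvaptan, against 42.3 to 71.64 TPM with dDAVP alone, with overlap. Lrp2 was apart, at 10.6 to 11.6 TPM with tolvaptan, against 7.80 to 8.43 TPM with dDAVP alone. The part of these 20 markers in the results was not tested either. Tolvaptan replicate 4 stood apart from its group. It was the highest or lowest tolvaptan library for 40 of the 49 tested members (81.6%), and for 74.7% of all 9943 genes tested. For the other tolvaptan libraries these shares were 24.5 to 59.2% of tested members and 29.7 to 52.8% of all genes tested. The median spread of a tested member, as SD in percent of the mean, was 6.53% with tolvaptan, 4.36% with tolvaptan when replicate 4 was left out, and 3.34% with dDAVP alone. Counts of calls without this library are given where they differ. Because every library sums to the same number of TPM, read depth is unknown and counting intervals are not given.

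The chaperone transcripts were abundant and their total did not separate the groups. All 73 members together held 7986, 7993, 8094 and 7797 TPM in the 4 tolvaptan libraries, against 8021, 8172, 7951 and 8073 TPM in the 4 dDAVP libraries. These totals overlapped, and they made up 0.780 to 0.817% of a library. The most abundant members were Hsp90ab1, Hspa8 and Hspa5, each at 902.51 TPM or more in every library, while 12 members stayed under 1 TPM in every library. HSP90, HSP70 with HSP110, class A, class C and mitochondrial chaperonin totals overlapped between the groups as well. Only the class B and small heat shock totals did not overlap. Class B summed to 468 ± 8.49 TPM in tolvaptan libraries and 576 ± 14.0 TPM in dDAVP libraries (n = 4 each, SD). The difference of class B was carried by Dnajb2, since the other 12 class B genes summed to 396 ± 10.1 TPM in tolvaptan libraries and 394 ± 4.79 TPM in dDAVP libraries and overlapped (n = 4 each, SD). The small heat shock genes summed to 113 ± 4.08 TPM in tolvaptan libraries and 91.5 ± 5.51 TPM in dDAVP libraries (n = 4 each, SD). In bulk RNA, fewer cells expressing a gene and less of its mRNA per cell cannot be told apart.

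**Figure D1:**
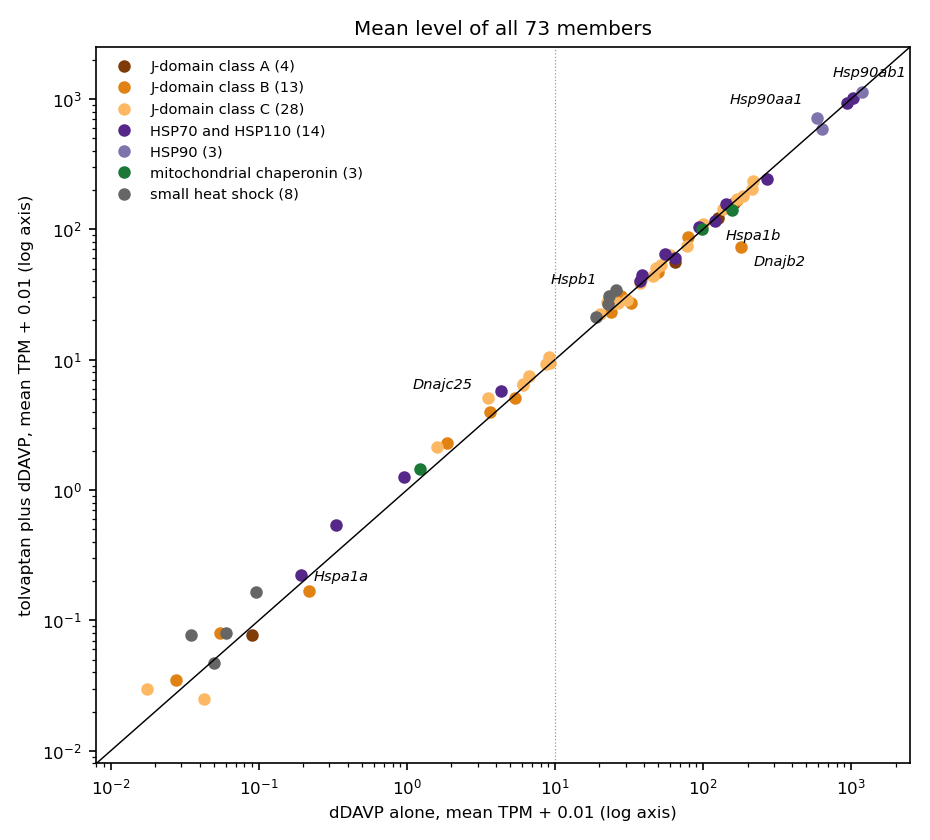
Mean level of each of the 73 members with tolvaptan plus dDAVP (vertical axis) and with dDAVP alone (horizontal axis), both as TPM + 0.01 on log axes, colored by role. The solid line marks equal levels and the dotted line 10 TPM. Nearly all members lie along the line, and Dnajb2 stands farthest below it among the abundant ones, at 72.5 TPM with tolvaptan, against 182 TPM with dDAVP alone.

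Individual members changed by small amounts, apart from Dnajb2. At an adjusted p under 0.05 (limma on log2(TPM + 1), Benjamini-Hochberg adjustment over all 9943 genes), 5 of 49 tested members were higher with tolvaptan (10.2%), beside 10% of all genes tested. These were Hspb2, Hspb1, Dnajc13, Hsp90aa1 and Hspa2. Another 3 members were lower (6.12%), beside 6.1% of all genes tested, namely Dnajb2, Hspd1 and Hspa9. Both shares lay at the background, so the number of chaperone genes called is not in itself a result about them. The remaining 41 tested members had no call, and 25 of the 49 had a log2 fold change within 0.1 of 0. The median log2 fold change was 0.03 over the tested members and 0.05 over all genes tested.

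Counted without a model, all 4 tolvaptan libraries lay above all 4 dDAVP libraries for 9 of 49 tested members (18.4%), beside 15.1% of all genes tested. They lay below for 8 of 49 (16.3%), beside 7.99% of all genes tested. Beyond the 8 called members, this holds upward for Hspa14, Hsph1, Dnajb1 and Dnajc27 and downward for Hspa4, Hsp90b1, Dnaja1, Dnaja3 and Dnajc3, and none of these 9 passed the limma test. Without tolvaptan replicate 4, 13 of 49 tested members were higher, beside 1403 of all 9943 genes tested (14.1%). Another 4 of 49 were lower, beside 834 of 9943 (8.39%). The share higher was above that of all genes in this setting, and the difference was not tested. The 8 genes added upward were Hspa14, Dnajc9, Hspa4l, Dnajc10, Hsph1, Hspb11, Dnajb1 and Hspa13 (adjusted p from limma 0.00444 to 0.0350), and the 1 added downward was Dnaja1 (limma adjusted p = 0.0246). With library values scaled to a common median, 4 of 49 members were higher (Hspa2 lost its call), beside 5.79% of all genes tested. Another 4 of 49 were lower (Dnaja1 was added), beside 8.3% of all genes tested. All 8 members called with every library kept their call and direction without tolvaptan replicate 4. The same held without tolvaptan replicate 3, but not when any other library was left out. With any 1 dDAVP library left out, 3 or 4 members were higher and only Dnajb2 was lower.

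**Figure D2:**
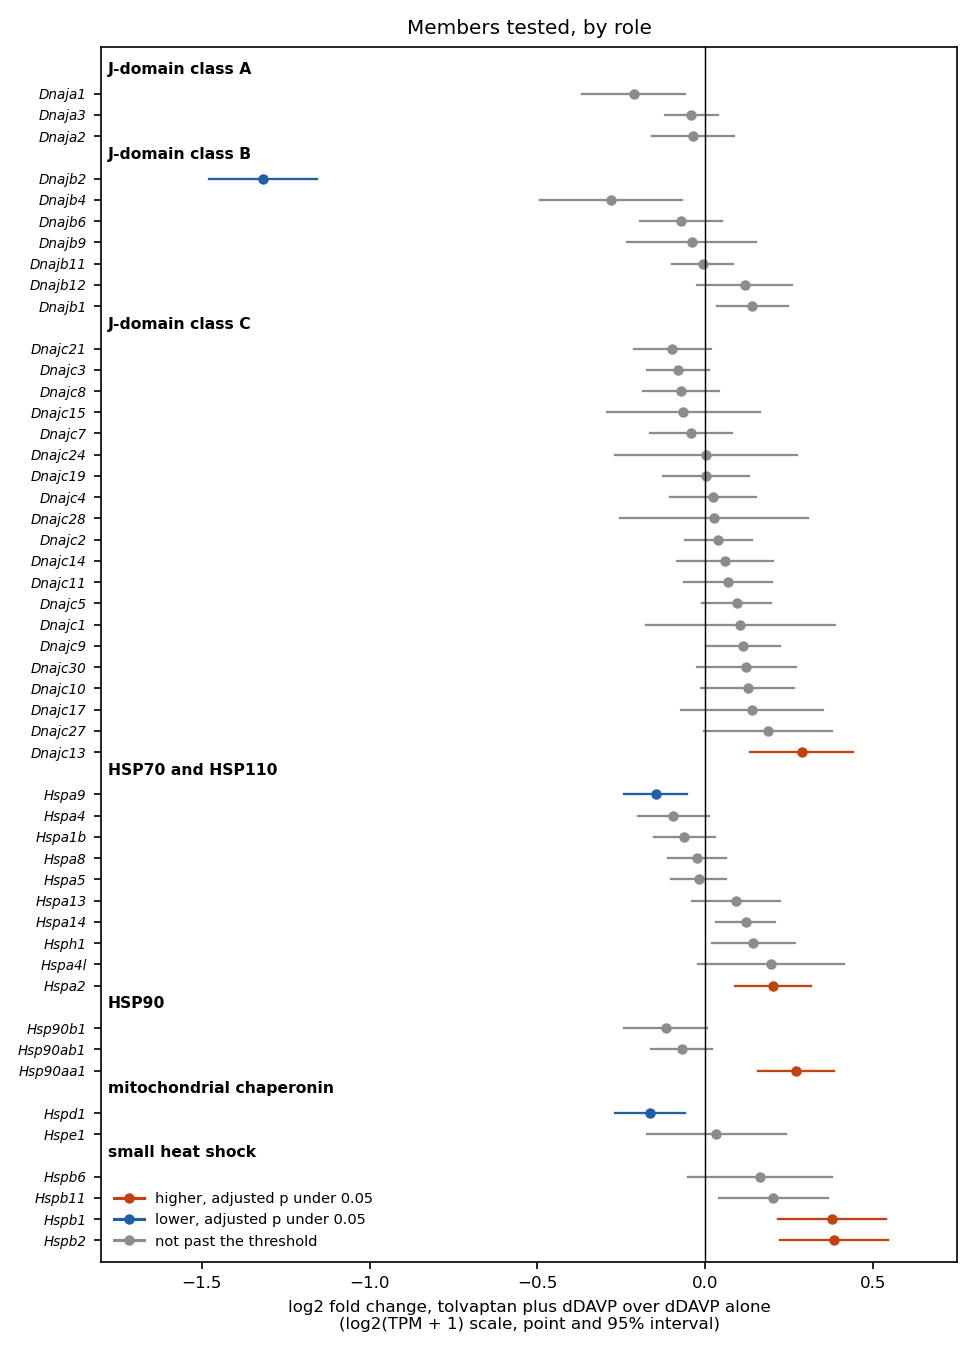
Log2 fold change, tolvaptan plus dDAVP over dDAVP alone, on the log2(TPM + 1) scale, for the 49 members tested, by role (points, with 95% confidence intervals from limma as bars). Colors mark members past an adjusted p of 0.05. Dnajb2 lies at -1.32, and the other 48 members lie between -0.28 and 0.38.

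Class B J-domain genes, which encode partners of HSP70 in the cytosol, nucleus and ER, held the one large change. Dnajb2 (ENSMUSG00000026203) encodes a J-domain protein with ubiquitin-binding motifs that is best known in neurons, where it directs HSP70 clients to the proteasome. It stood at 67.1, 69.8, 69.5 and 83.5 TPM in the 4 tolvaptan libraries, against 185, 196, 176 and 171 TPM in the 4 dDAVP libraries. Every tolvaptan library was far below every dDAVP library, and tolvaptan replicate 4 was the highest of its group. The means were 72.5 ± 7.41 TPM with tolvaptan, against 182 ± 10.8 TPM with dDAVP alone (n = 4 each, SD), so the mean with dDAVP alone was 2.51 times that with tolvaptan. Dnajb2 fell by 1.32 on the log2 scale (standard error, SE, 0.07, 95% interval -1.48 to -1.16, limma adjusted p = 1.97e-06), the 39th lowest fold change of the 9943 genes tested. Without tolvaptan replicate 4 its log2 fold change was -1.39. It was also the only member beyond a 1.5-fold change with an unadjusted p under 0.01.

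The window before the gene is shown because Dnajb2 carries the largest change and cAMP, the messenger of the V2 receptor, acts partly through CREB, which binds the cAMP response element TGACGTCA or its core TGACG. RefSeq lists 2 promoter windows for Dnajb2. The 222 bases before the annotated start of the gene lie at chr1:75236173-75236394 on the plus strand of GRCm38.p6, with matches to TGACG on either strand in capitals.
Dnajb2: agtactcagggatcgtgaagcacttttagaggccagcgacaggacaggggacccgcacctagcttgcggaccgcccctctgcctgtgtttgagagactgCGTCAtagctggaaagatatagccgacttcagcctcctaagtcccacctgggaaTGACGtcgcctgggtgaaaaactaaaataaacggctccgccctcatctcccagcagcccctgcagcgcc
A RefSeq promoter window was at hand for 58 of the 73 members, 75 windows in all. In the 250 bases before the start, the core TGACG (both strands) occurred in 44.0% of member windows, 28.3% of the windows of tested genes and 17.8% of all 32851 windows. The full element TGACGTCA, which contains the core on both strands, occurred in 1.33% of member windows, that of Dnajc27 alone, in 2.69% of the windows of tested genes and in 1.55% of all windows. Counted by gene, 29 of the 58 members with a window held the core in at least 1 window. All 5 called members with a window were among these (Dnajb2, Dnajc13, Hspa2, Hspb1 and Hspd1), both genes that were higher and genes that were lower. Whether called members differ from the others in this was not tested. A match is a description of the letters only.

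The gene next to Dnajb2 on chromosome 1 that was also expressed moved with it. This neighbor was examined after its values were seen. In RefSeq order the genes are Glb1l, Stk16, Tuba4a, A630095N17Rik, Dnajb2 and Ptprn. Tuba4a, an alpha-tubulin gene, stood at 310.4, 330.5, 343 and 351 TPM with tolvaptan, against 606, 639.9, 576 and 588 TPM with dDAVP alone. The groups were wide apart, with a log2 fold change of -0.85 (SE 0.05, limma adjusted p = 2.68e-06). Stk16, a serine/threonine kinase gene on the far side of Tuba4a, averaged 182 ± 12.3 TPM with tolvaptan, against 186 ± 1.35 TPM with dDAVP alone (n = 4 each, SD), and did not pass (log2 fold change -0.03, limma adjusted p = 0.696). Glb1l had a log2 fold change of -0.04 and was not called, and A630095N17Rik and Ptprn were under the filter.

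The other 6 class B genes tested had no call. Dnajb11, an ER partner of the HSP70 protein BiP, was the most abundant of the class with tolvaptan, whereas Dnajb2 was above it in every dDAVP library. It stood at 168, 168, 177 and 162 TPM with tolvaptan, against 168, 175, 169 and 166 TPM with dDAVP alone. The groups overlapped throughout (log2 fold change -0.01, 95% interval -0.10 to 0.08). Dnajb1, the main heat-inducible J-domain partner of cytosolic HSP70, lay above its dDAVP values in all 4 tolvaptan libraries without passing the test (log2 fold change 0.14, limma adjusted p = 0.0746). It passed without tolvaptan replicate 4, at a smaller log2 fold change of 0.10 (limma adjusted p = 0.0342). Within a library, Dnajb2 had 0.83 ± 0.04 times the level of Dnajb1 with tolvaptan and 2.30 ± 0.136 times with dDAVP alone (SD, n = 4 each), so the order of these genes differed between the groups. Dnajb4, another cytosolic member, had a log2 fold change of -0.28 (limma adjusted p = 0.0731). Its groups overlapped, and it passed only without tolvaptan replicate 1 (limma adjusted p = 0.0264).

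Class A genes encode J-domain proteins with the full domain set of bacterial DnaJ, and none of the 3 tested passed limma's adjusted p of 0.05 (1 was under an unadjusted p of 0.05). Dnaja3, whose protein works in mitochondria, was the most abundant, at 159, 154, 159 and 158 TPM with tolvaptan, against 161, 163, 162 and 163 TPM with dDAVP alone. The groups lay side by side without overlap, but the difference was small (log2 fold change -0.04, 95% interval -0.12 to 0.04). Dnaja2, a cytosolic member, stood at 126, 116, 127 and 122 TPM with tolvaptan, against 115, 130.2, 125 and 134 TPM with dDAVP alone, with full overlap. Dnaja1, also cytosolic, averaged 55.6 ± 5.54 TPM with tolvaptan, against 64.4 ± 1.59 TPM with dDAVP alone (n = 4 each, SD). Its log2 fold change of -0.21 missed the threshold (limma adjusted p = 0.0636). Dnaja1 passed without tolvaptan replicate 4, at a smaller log2 fold change of -0.14 (limma adjusted p = 0.0246), and with a common median or quantile normalization.

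Class C holds proteins that share the J domain and little else, with roles from splicing to endosomes. Of 20 tested, 1 was higher, beside 10% of all genes tested. Without tolvaptan replicate 4, 3 were higher (with Dnajc9 and Dnajc10 added), beside 14.1% of all genes tested. Dnajc13 (ENSMUSG00000032560) encodes an endosomal protein that recruits HSP70 to sorting membranes. It stood at 28.1, 27.8, 25.9 and 29.2 TPM with tolvaptan, against 23.8, 24.7, 20.9 and 21.1 TPM with dDAVP alone. The lowest tolvaptan library was above the highest dDAVP library by about 1 TPM. Dnajc13 had a log2 fold change of 0.29 (SE 0.07, limma adjusted p = 0.0209). The call was lost without tolvaptan replicate 2 (adjusted p = 0.0646), dDAVP replicate 3 (0.0675) or dDAVP replicate 4 (0.0724), and with no filter or quantile normalization, all by limma.

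The most abundant class C genes act in the nucleus and had no call. Dnajc9, a histone chaperone, stood at 237, 243, 244 and 213 TPM with tolvaptan, against 214, 211, 223 and 218 TPM with dDAVP alone. Tolvaptan replicates 1, 2 and 3 exceeded every dDAVP library and replicate 4 did not. Its log2 fold change was 0.11 with all libraries (limma adjusted p = 0.159) and 0.16 without tolvaptan replicate 4 (limma adjusted p = 0.00668). Dnajc8, a splicing-associated protein, stood at 206, 205, 218 and 187 TPM with tolvaptan, against 219.97, 208, 211 and 219 TPM with dDAVP alone, and the groups overlapped. Across the other 17 tested class C genes log2 fold changes ran from -0.10 for Dnajc21, a ribosome assembly factor, to 0.19 for Dnajc27, a small GTPase with a J domain.

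HSP70 and HSP110 genes split into 1 higher, 1 lower and 8 without a call of 10 tested. All genes tested were called higher in 10% and lower in 6.1%. The split was 5 higher and 1 lower without tolvaptan replicate 4, beside 14.1% higher and 8.39% lower of all genes tested. The constitutive cytosolic HSP70 gene Hspa8 stood at 994.1, 994, 1005 and 1067 TPM with tolvaptan, against 1075, 1040.4, 998 and 1015 TPM with dDAVP alone. These overlapped (log2 fold change -0.02, 95% interval -0.11 to 0.06). Hspa5, which encodes BiP, the HSP70 of the ER, stood at 904, 903, 923 and 962 TPM with tolvaptan, against 919, 974, 915 and 934 TPM with dDAVP alone. It overlapped in the same way (log2 fold change -0.02, 95% interval -0.10 to 0.06).

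Hspa2 (ENSMUSG00000059970), an HSP70 gene known for its high level in testis, rose. It stood at 45.0, 43.4, 42.8 and 48.3 TPM with tolvaptan, against 37.7, 39.1, 38.4 and 40.1 TPM with dDAVP alone. No tolvaptan library reached down to a dDAVP library (log2 fold change 0.20, SE 0.05, limma adjusted p = 0.0247). The call was lost without dDAVP replicate 1 (adjusted p = 0.0741), 2 (0.0608) or 3 (0.0702), and with no filter, a common median or quantile normalization, all by limma. Hspa9 (ENSMUSG00000024359), the HSP70 of the mitochondrial matrix that pulls in imported proteins, fell. It stood at 251, 239, 253 and 233 TPM with tolvaptan, against 274, 277, 261 and 269 TPM with dDAVP alone. The groups did not overlap, and the change was small (log2 fold change -0.15, SE 0.04, limma adjusted p = 0.0410). This call was lost without tolvaptan replicate 2 (adjusted p = 0.0920) or any 1 dDAVP library (0.0954, 0.0990, 0.0550 and 0.0874 without replicates 1 to 4), and with no filter, quantile normalization or no variance trend, all by limma.

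The 2 heat-inducible HSP70 genes are near copies of each other, and reads may not have been divided between them reliably. Hspa1a stood at 0.25, 0.08, 0.28 and 0.24 TPM with tolvaptan, against 0.05, 0.32, 0.22 and 0.14 TPM with dDAVP alone. Hspa1b stood at 117, 115, 113 and 117 TPM with tolvaptan, against 119, 117, 126 and 120.5 TPM with dDAVP alone. Both overlapped between the groups, and Hspa1b was not called (log2 fold change -0.06, 95% interval -0.15 to 0.03, limma adjusted p = 0.327). Of all 50-base windows of the Hspa1b transcript, 62.3% also occur in the Hspa1a transcript of the reference annotation, whereas no 50-base window of Hspa2 occurs in Hspa8. The nucleotide exchange factors of the HSP110 type gave log2 fold changes of -0.10 for Hspa4, 0.14 for Hsph1 and 0.20 for Hspa4l. None was called, although Hsph1 and Hspa4l passed without tolvaptan replicate 4.

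HSP90 genes gave 1 higher of 3 tested and none lower, beside 10% higher and 6.1% lower of all genes tested. Hsp90aa1 (ENSMUSG00000021270), the inducible cytosolic HSP90, rose. It stood at 731, 763, 662 and 686 TPM with tolvaptan, against 576, 591, 568 and 620.0 TPM with dDAVP alone. Every tolvaptan library was above every dDAVP library (log2 fold change 0.27, SE 0.05, 95% interval 0.16 to 0.38, limma adjusted p = 0.00647). Hsp90ab1, the constitutive cytosolic HSP90 and the most abundant member, stood at 1118, 1132, 1206 and 1080.0 TPM with tolvaptan, against 1174, 1234, 1181 and 1172 TPM with dDAVP alone. These overlapped (log2 fold change -0.07, 95% interval -0.16 to 0.02). Within a library the level of Hsp90aa1 over that of Hsp90ab1 was 0.628 ± 0.055 with tolvaptan and 0.495 ± 0.023 with dDAVP alone (SD, n = 4 each), and this ratio did not overlap between the groups. Hsp90b1, the HSP90 of the ER, was lower in every tolvaptan library but had no call (log2 fold change -0.12, limma adjusted p = 0.179).

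**Figure D3:**
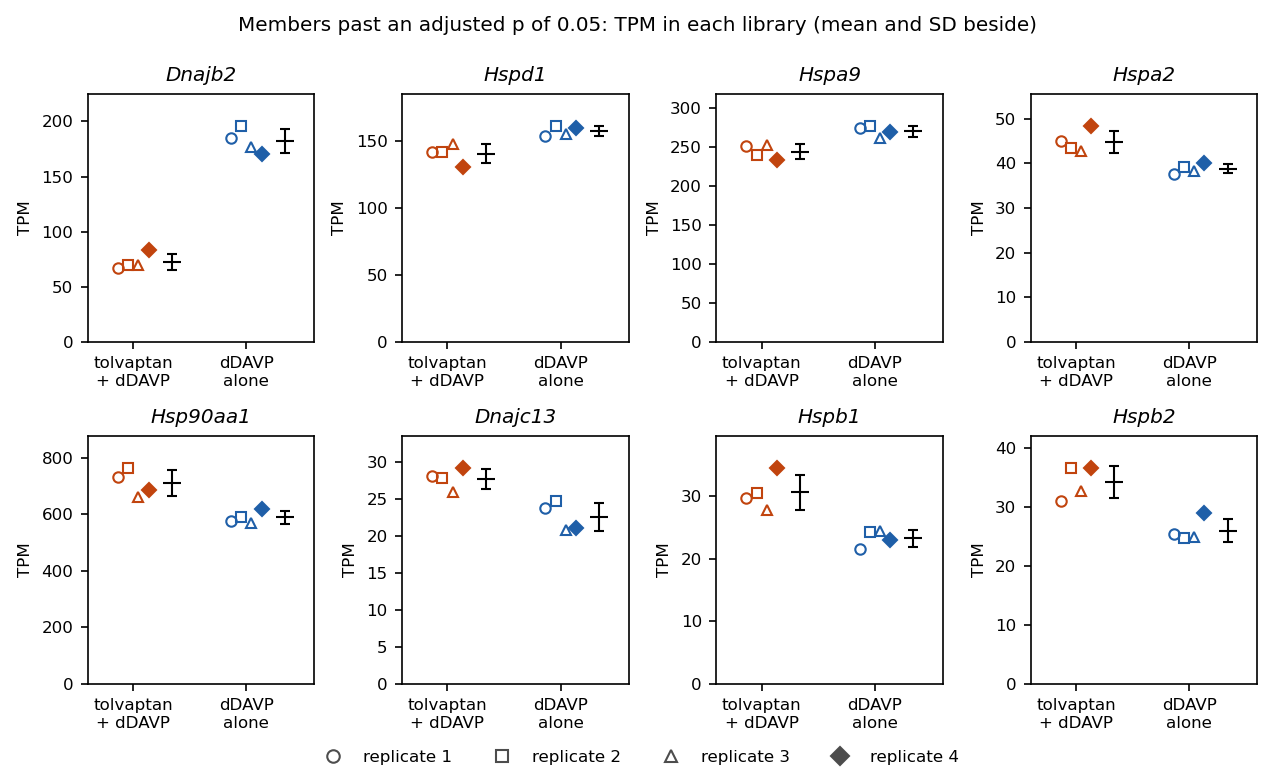
TPM in each library for the 8 members past an adjusted p of 0.05, tolvaptan plus dDAVP at left and dDAVP alone at right in each panel, with symbols for replicate numbers and the mean and SD of 4 libraries beside them (vertical axes start at 0). The groups are apart in all 8 panels, widely for Dnajb2 and by about 1 TPM between the nearest libraries for Dnajc13.

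The mitochondrial chaperonin is built from Hspd1 (HSP60) and its lid Hspe1 (HSP10), whose genes lie head to head. Hspd1 (ENSMUSG00000025980) stood at 142, 142, 148 and 131 TPM with tolvaptan, against 154, 161, 156 and 159.7 TPM with dDAVP alone. The groups were close but did not overlap (log2 fold change -0.16, SE 0.05, limma adjusted p = 0.0410). The call was kept only without tolvaptan replicate 3 (adjusted p = 0.0329) or 4 (0.0200). It was lost without tolvaptan replicate 1 (0.0558) or 2 (0.0775) and without any 1 dDAVP library (0.0680, 0.101, 0.0798 and 0.103 without replicates 1 to 4), and with no filter, quantile normalization or no variance trend, all by limma. Hspe1 stood at 112, 105, 102 and 84.3 TPM with tolvaptan, against 101, 95.1, 87.1 and 109.99 TPM with dDAVP alone. It overlapped fully (log2 fold change 0.03, 95% interval -0.17 to 0.24). The ratio of Hspd1 to Hspe1 within a library was 1.41 ± 0.12 with tolvaptan and 1.61 ± 0.155 with dDAVP alone (SD, n = 4 each). Tolvaptan replicates 1, 2 and 3 lay below every dDAVP library in this ratio, replicate 3 only just (1.4507 against 1.4519). The groups overlapped through tolvaptan replicate 4, at 1.55. Of the 10 members tested that act in mitochondria, Hspa9 and Hspd1 were lower and none was higher, with a median log2 fold change of 0.01. All genes tested were called lower in 6.1% and higher in 10%.

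Small heat shock genes gave 2 higher of 4 tested, beside 10% of all genes tested. Without tolvaptan replicate 4, Hspb11 was added, which made 3, beside 14.1% of all genes tested. Hspb2 (ENSMUSG00000038086), best known from muscle, stood at 31.1, 36.6, 32.8 and 36.6 TPM with tolvaptan, against 25.5, 24.8, 24.9 and 29.0 TPM with dDAVP alone. All tolvaptan libraries were higher (log2 fold change 0.38, SE 0.07, limma adjusted p = 0.00645). Hspb1 (ENSMUSG00000004951), the classic small heat shock protein that also guards actin filaments, stood at 29.7, 30.5, 27.9 and 34.5 TPM with tolvaptan, against 21.6, 24.3, 24.5 and 23.0 TPM with dDAVP alone. Here too the groups did not overlap (log2 fold change 0.38, SE 0.07, limma adjusted p = 0.00664). Hspb11, a component of the ciliary transport machinery, had a log2 fold change of 0.20 (limma adjusted p = 0.0859), and Hspb6 had one of 0.16 (limma adjusted p = 0.284). The other 4 genes of the class, Hspb3, Hspb7, Hspb8 and Hspb9, were under 1 TPM in every library.

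Cryab, which encodes the small heat shock protein alpha-B-crystallin and does not carry an Hspb symbol, was higher as well. It stood at 426, 402, 434 and 368 TPM with tolvaptan, against 308, 308, 304 and 316 TPM with dDAVP alone. The groups were apart (log2 fold change 0.40, SE 0.05, limma adjusted p = 0.000814). Hspb2 and Cryab are neighbors on opposite strands with overlapping annotation, and whether strand was used in the quantification is not given in the sources used here, so their reads may not have been told apart. The level of Hspb2 was 0.0848 ± 0.013 of that of Cryab with tolvaptan and 0.0842 ± 0.005 with dDAVP alone (SD, n = 4 each), with overlap.

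**Figure D4:**
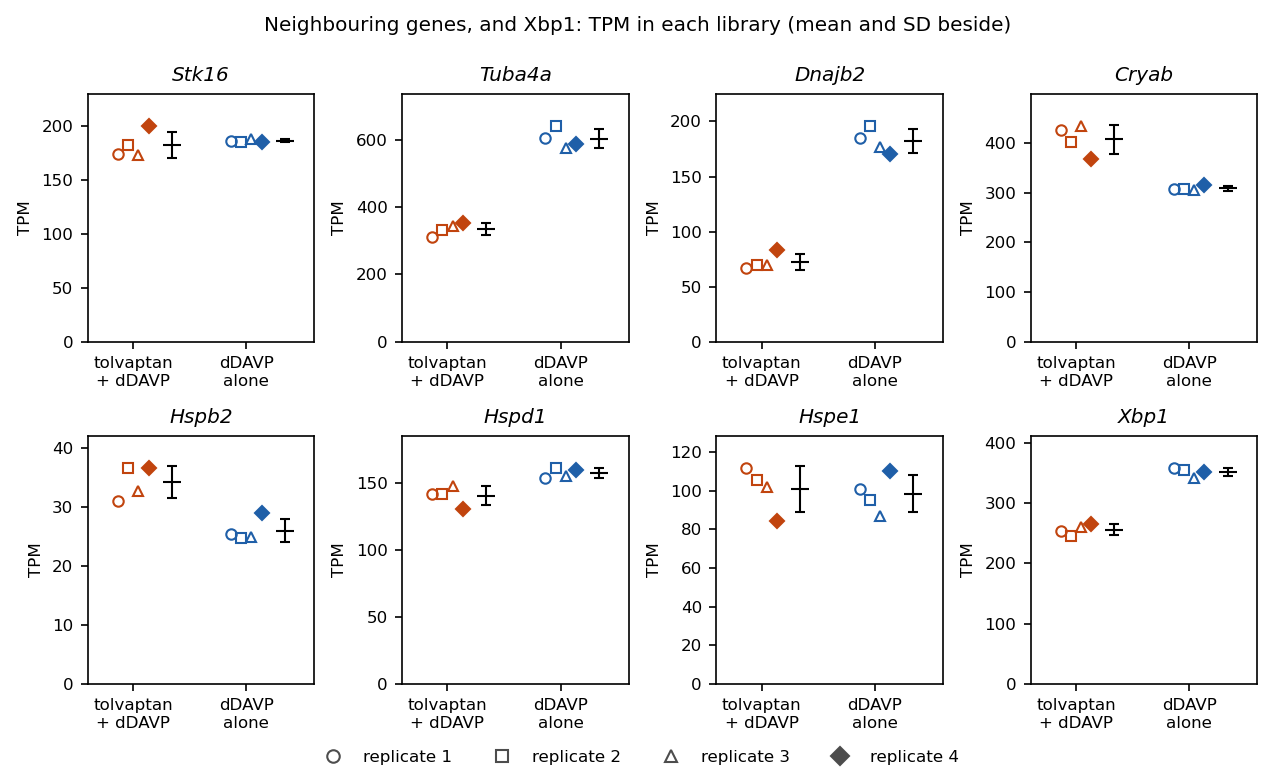
TPM in each library for Dnajb2 with its neighbors Stk16 and Tuba4a, for the neighboring pairs Cryab and Hspb2 and Hspd1 and Hspe1, and for Xbp1, tolvaptan plus dDAVP at left and dDAVP alone at right, with the mean and SD of 4 libraries (vertical axes start at 0). Tuba4a and Dnajb2 are lower with tolvaptan and Stk16 overlaps, Cryab and Hspb2 are both higher, and Hspe1 overlaps where Hspd1 does not.

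The promoter of Hspb1 is shown as that of a higher member with a heat shock element, the sequence that heat shock factors bind. The 250 bases before its start lie at chr5:135887669-135887918 on the plus strand of GRCm38.p6. Capitals mark 2 elements of 2 units (GAANNTTC or TTCNNGAA, both strands).
Hspb1: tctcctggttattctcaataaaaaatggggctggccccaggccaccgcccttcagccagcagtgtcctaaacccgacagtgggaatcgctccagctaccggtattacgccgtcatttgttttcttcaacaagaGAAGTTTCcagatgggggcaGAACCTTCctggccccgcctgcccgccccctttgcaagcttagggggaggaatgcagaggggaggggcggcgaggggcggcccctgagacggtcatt
Elements of 3 units (GAANNTTCNNGAA or TTCNNGAANNTTC), each of which contains 2 elements of 2 units, are shown for the members that hold one, Hspd1, Hspe1 and Dnajb6, with 5 flanking bases on each side. The windows are chr1:55087883-55088182 on the minus strand for Hspd1, chr1:55087898-55088197 on the plus strand for Hspe1 and chr5:29735648-29735947 on the plus strand for Dnajb6. Those of Hspd1 and Hspe1 overlap and are read on opposite strands. Each of these also holds a further element of 3 units, overlapping the one shown, that is not printed. The capitals for Hspd1 and Hspe1 therefore mark different stretches that share only part of their bases.
Hspd1: gggccTTCCGGAAGGTTCtagaa
Hspe1: gtccgTTCTAGAACCTTCcggaa
Dnajb6: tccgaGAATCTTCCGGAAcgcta
Elements of 2 units occurred in 21.3% of member windows, 9.87% of the windows of tested genes and 12.8% of all windows. Those of 3 units occurred in 5.33% of member windows and 0.466% of all windows. The member share is 4 windows, the overlapping windows of Hspd1 and Hspe1 and 2 overlapping windows of Dnajb6 that hold the same element, so sites were counted more than once.

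Genes known as heat shock factor 1 targets gave calls in both directions. Of 20 listed, members and others, 17 were tested, with 3 higher (Cryab, Hsp90aa1 and Hspb1), 1 lower (Hspd1) and 13 without a call, beside 10% higher and 6.1% lower of all genes tested. The downward call of Hspd1 passed in only 2 of the 8 comparisons that left out 1 library, whereas the 3 upward calls passed in all 8. Without tolvaptan replicate 4, 6 were higher (with Dnajb1, Hsph1 and Hspa4l added) and 2 lower (with Dnaja1 added), beside 14.1% higher and 8.39% lower of all genes tested. Their median log2 fold change was 0.01, against 0.05 over all genes tested. The inducible genes Hspa1b, Dnajb1 and Hsph1 were among the 13 without a call when every library was used. Hsf1 itself averaged 127 ± 9.64 TPM with tolvaptan, against 116 ± 6.11 TPM with dDAVP alone (n = 4 each, SD), without a call (log2 fold change 0.13, limma adjusted p = 0.195). Hsbp1, which binds heat shock factors, was the other gene tested of 7 heat shock factor genes and regulators, and neither was under an unadjusted p of 0.05.

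Chaperones of the ER gave no call among the members with every library. Among other ER folding genes 3 were lower, and the difference between these lists was not tested. Of 13 ER members listed, 9 were tested (Hspa5, Hsp90b1 and Dnajb11 among them), 0 passed limma's adjusted p of 0.05 and 0 were under an unadjusted p of 0.05. Their log2 fold changes ran from -0.12 to 0.13. Without tolvaptan replicate 4, Dnajc10 and Hspa13 were higher (limma adjusted p = 0.0180 and 0.0350), beside 14.1% of all genes tested. Of 22 ER folding and stress genes that are not members, 20 were tested, with 3 lower and 0 higher (4 lower and 0 higher at an unadjusted p under 0.05), beside 6.1% lower and 10% higher of all genes tested. Creld2 was added without tolvaptan replicate 4, which made 4 lower, beside 8.39% of all genes tested. Xbp1, a transcription factor that induces ER chaperones once its mRNA is spliced, stood at 254, 245, 260.0 and 266 TPM with tolvaptan, against 358, 356, 342 and 352 TPM with dDAVP alone. The groups were wide apart (log2 fold change -0.46, SE 0.04, limma adjusted p = 4.42e-05). Herpud1, an ER membrane protein of the degradation pathway, had a log2 fold change of -0.25 (limma adjusted p = 0.00503). Canx, the lectin chaperone calnexin, had one of -0.21 (limma adjusted p = 0.0203), and its call was lost without tolvaptan replicate 3 (adjusted p = 0.0583) or dDAVP replicates 2 (0.0623), 3 (0.0657) or 4 (0.0705), and with no filter or quantile normalization, all by limma.

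The ER stress response element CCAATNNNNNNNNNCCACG (both strands) was found before 3 members, Hspa5, Hsp90b1 and Dnajc3, none of which was called. It occurred in 4.0% of member windows and 0.113% of all windows. The matches are shown with 5 flanking bases, from windows at chr2:34771840-34772139 (plus strand) for Hspa5, chr10:86705395-86705694 (minus strand) for Hsp90b1, which holds a second match, and chr14:118937682-118937981 (plus strand) for Dnajc3, all GRCm38.p6.
Hspa5: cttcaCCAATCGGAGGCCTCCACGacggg
Hsp90b1: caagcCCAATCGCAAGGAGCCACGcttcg
Hsp90b1, second match: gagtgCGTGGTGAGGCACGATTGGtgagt
Dnajc3: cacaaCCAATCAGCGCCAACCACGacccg

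Among co-chaperones outside the family, 1 of 15 HSP70 exchange factors and cofactors tested was lower and 0 were higher, beside 6.1% lower and 10% higher of all genes tested. This was Bag2, an inhibitor of the ubiquitin ligase CHIP, at 98.7, 86.6, 92.8 and 89.2 TPM with tolvaptan, against 105.5, 105.6, 106.1 and 107.7 TPM with dDAVP alone. The groups did not overlap (log2 fold change -0.21, limma adjusted p = 0.0162), and the call was lost without dDAVP replicate 4 (limma adjusted p = 0.0511) and with no filter. Bag1, another exchange factor, and Sec63, the J-domain protein of the ER translocon, were not called (log2 fold changes -0.12 and -0.20), but Bag1 passed downward without tolvaptan replicate 4 (limma adjusted p = 0.0212) and with a common median (limma adjusted p = 0.0265). Of 21 HSP90 co-chaperones tested, only Nudcd3 passed, upward, beside 10% higher of all genes tested. Its log2 fold change was 0.15 (limma adjusted p = 0.0490), and it passed in 2 of the 8 comparisons that left out 1 library, those without tolvaptan replicate 1 (adjusted p = 0.0257) or 4 (0.0347). With the others left out its adjusted p ran from 0.0827 to 0.120 by limma. Its call was also lost with a maximum TPM over 1, no filter, a common median, quantile normalization, and no or a robust variance trend. Ahsa2 and Cdc37l1 followed without a call (log2 fold changes 0.16 and 0.14). Without tolvaptan replicate 4, Cdc37l1 passed upward (limma adjusted p = 0.0353) and the phosphatase gene Ppp5c downward (limma adjusted p = 0.0398).

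All 14 subunits of the cytosolic chaperonin TRiC and of prefoldin were tested and 0 passed limma's adjusted p of 0.05, while 1 was under an unadjusted p of 0.05. This was Pfdn5 (log2 fold change 0.13), followed by Cct7 (-0.08) and Pfdn6 (0.11). Of 8 other small heat shock and mitochondrial quality genes tested, only Cryab was called, upward, beside 10% higher of all genes tested. Htra2 and Clpb, a protease and a disaggregase of mitochondria, had log2 fold changes of 0.15 and 0.23 without a call. Of the 7 members that act in splicing, ribosomes or the nucleus, 0 passed limma's adjusted p of 0.05 and 1, Dnajc9, was under an unadjusted p of 0.05. Among J-domain proteins of clathrin uncoating and vesicles, 2 of the 6 listed were tested as members. These were Dnajc13, which was higher, and Dnajc5, the cysteine string protein, which was not called (log2 fold change 0.09). Dnajc26, also listed, is the gene Gak. It was tested under that symbol with the HSP70 cofactors and was not called (log2 fold change -0.02, limma adjusted p = 0.860).

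The 24 members under the filter were examined in a comparison without it. None passed limma's adjusted p of 0.05, and none was under an unadjusted p of 0.05. The lowest adjusted p was 0.381, for Hspa12a, a distant HSP70 relative, at 5.15, 6.87, 5.29 and 5.65 TPM with tolvaptan, against 5.13, 5.44, 3.80 and 2.98 TPM with dDAVP alone. These overlapped, and the scale of log2(TPM + 1) draws fold changes of such low genes toward 0. Of the 24, 12 were under 1 TPM in every library, among them the heat-inducible genes Hspa1a, Dnaja4 and Hspb8. The others reached 1.39 to 9.98 TPM, from Hspa1l, a testis HSP70, to Dnajc18, an ER membrane J-domain gene. At the threshold itself, Dnajc27 and Dnajc28 had the lowest means of the members tested, at 10.5 and 9.35 TPM in tolvaptan libraries and at 9.10 and 9.23 TPM in dDAVP libraries.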

How the data were processed

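RNA from 8 mpkCCD samples (4 with tolvaptan plus dDAVP, 4 with dDAVP alone) was reverse transcribed, tagmented and sequenced by the authors as paired-end reads. Nothing in the sources used here ties a library to its own culture. The p-values therefore rest on the spread among libraries, which may be technical. The deposited values are TPM, which the authors generated with RSEM after STAR alignment to the mouse Ensembl genome (tool versions are not given in the sources used here). Expected counts were not used here, so DESeq2, the tool in the methods, could not be run, and depth is unknown. The authors' minimum and maximum columns were not used.

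Each column was assigned to a sample from its group and number, and 0 sample columns were left over. A maximum TPM over 10, the rule the study states for its filtered data, was applied to the deposited table and left 9943 genes. Values were compared as log2(TPM + 1) in R 4.3.3 with limma 3.58.1 (unpaired 2-sided moderated test, variance trend on), with Benjamini-Hochberg adjustment over all genes kept and a threshold of 0.05. Fold changes on this scale understate those of low genes. For a single value, 4 libraries against 4 allow an exact 2-sided permutation p no lower than 0.0286, so limma, which pools information on the spread over genes, was used throughout.

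The members, lists and tests were chosen with earlier results of these data known. Values in every library are given for members past the threshold (up to 10 in each direction), the 2 most abundant members of each role group, both Hspa1 genes and Dnajb2. The 3 genes of smallest p are named from each list of co-chaperones, with Hsf1. Other members, the neighbors of Dnajb2 and the library values of Cryab, Xbp1 and Bag2 were added after their values were seen.

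Alternatives were pseudocounts of 0.1 and 5, filters of a maximum over 1, a mean over 10 and none, a common median, quantile normalization, no or a robust variance trend, replicate number as a block, a fold beyond 1.5 with an unadjusted p under 0.01, and leaving out each library. Promoter windows and gene order come from RefSeq (GRCm38.p6) and transcripts from GENCODE, an older build than the one the authors used. No coordinates are given for the deposited genes themselves. Promoter sequence of Hspa9 is not shown.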

Additional observations from a re-analysis of the deposited data

Results flagged for a closer look

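In 6 of 98 groups of 4 libraries (6.12%), 1 library stood far from the other 3, and chance alone gives about 1 in 20. In 4 of the 6 it was tolvaptan replicate 4. Its level was 1067.35 TPM for Hspa8, where the other tolvaptan libraries had 994 to 1005.29 TPM, and 56.64 TPM for Hspa4, where the others had 61.73 to 62.18 TPM. It was 11.14 TPM for Dnajc27, where the others had 10.21 to 10.33 TPM, and 83.45 TPM for Dnajb2, where the others had 67.12 to 69.83 TPM. With dDAVP alone, Hsp90ab1 had 1234.35 TPM in replicate 2, where the others had 1172.02 to 1180.64 TPM, and Hspb2 had 28.98 TPM in replicate 4, where the others had 24.82 to 25.45 TPM. The cause was not tested.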

How the results depend on the processing

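Dnajb2, Hspb1, Hspb2 and Hsp90aa1 passed in all 8 comparisons that left out 1 library and in all 10 other limma settings. Dnajc13, Hspa2, Hspa9 and Hspd1 did not pass in all of them, and 0 members reversed their call. The number of members higher was 5. It was 3 with no filter, 3 with quantile normalization, 0 beyond a 1.5-fold change with an unadjusted p under 0.01, and 3 to 13 with 1 library left out, the most without tolvaptan replicate 4. The number lower was 3. It was 1 with no filter, 1 with no variance trend, 1 beyond the 1.5-fold change (Dnajb2 each time), and 1 to 4 with 1 library left out. The median log2 fold change of the members was 0.0262. It was 0.0693 with a maximum TPM over 1, -0.0191 with a common median, 0.000648 with quantile normalization and -0.00713 to 0.0463 with 1 library left out. Over all genes, 994 were higher and 607 lower. With a common median these were 576 higher and 825 lower, with quantile normalization 612 and 680, and with no filter 498 and 422. The cause was not tested.

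Replicate numbers are shared between the groups, and the labels do not say whether they pair the libraries. Deviations of same-numbered libraries correlated at -0.05, -0.05, -0.07 and -0.00, and those of differently numbered libraries at -0.10 to 0.17. These values cannot show how the libraries were prepared. With replicate number as a block, 4 members were higher and 1 lower (the lower calls of Hspa9 and Hspd1 and the higher call of Hspa2 were lost, and among co-chaperones and ER genes those of Bag2, Canx and Nudcd3, with adjusted p of 0.0561, 0.0646 and 0.123 by limma), and 515 genes were higher and 396 lower in all. Depth is unknown, so what it limits cannot be stated per gene.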
